A study of Homo sapiens with 8 samples.

Results

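Myoepithelial cells are the outer, contractile cells of the mammary duct, and they share a set of cytoskeletal genes with smooth muscle. The set described here holds 10 gene symbols, *ACTA2*, *TAGLN*, *MYL9*, *MYLK*, *CNN1*, *CNN2*, *TPM1*, *TPM2*, *ACTN1* and *CALD1*, listed by name. Rows were found for 9 of the 10 among the 13842 genes of the table of normalized expression values. *CNN1*, which encodes calponin 1, was not analysed here.

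RNA-seq was performed on 8 libraries of 2 human breast epithelial cell lines. MCF10A is an immortalized, non-tumorigenic line, and DCIS.COM is a line of the same origin that models ductal carcinoma in situ. Each line was stably transduced with the lentiviral vector pLOC, either empty (pLOC-empty) or carrying the long non-coding RNA *MALINC1* (pLOC-*MALINC1*), and every group went through blasticidin selection, with 2 libraries per group. The 2 lines were grown in different media, since MCF10A cells received epidermal growth factor, hydrocortisone, insulin and cholera toxin beside the horse serum that both lines received, so line and medium cannot be told apart. The sources used here do not say whether the transduced cells were pools or single clones, or whether the libraries of a group came from separate cultures, so p-values measure only the spread between these libraries, which may be technical.

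Contraction in these cells depends on actin filaments and myosin II. Myosin light chain kinase, which a rise in calcium activates, phosphorylates the regulatory light chain of myosin II, and a phosphatase removes this phosphate. Tropomyosins, caldesmon and calponins bind along actin filaments and regulate them, alpha-actinin crosslinks them, and many genes of the set are classical targets of serum response factor (SRF) and its myocardin-related cofactors.

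Levels are given as CPM, the reads of a gene scaled to the normalized total of its library, and changes as log2 fold changes with the standard error (SE) of limma. A gene is said to have risen or fallen at a Benjamini-Hochberg adjusted p below 0.01 over all 13842 genes, and it is called a differentially expressed gene (DEG) when the change was also over 2-fold. The libraries held 20604377 to 37550457 reads on genes. *MALINC1* was measured at 1.07 and 1.58 CPM in the MCF10A pLOC-empty libraries and at 13.3 and 11.8 CPM with pLOC-*MALINC1*. The DCIS.COM libraries held 1.42 and 1.22 CPM with pLOC-empty and 24.5 and 19.2 CPM with pLOC-*MALINC1*. The *MALINC1* transcript was thus higher by 3.27 (log2, SE 0.19, limma adjusted p = 3.97e-08) in MCF10A, and by 4.04 (SE 0.19, limma adjusted p = 6.93e-09) in the DCIS.COM cells, in the direction of the labels.

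The promoters of the set are shown first because the SRF binding element, the CArG box, is the regulatory sequence best known for these genes. Promoter windows of RefSeq (GRCh38.p14) were at hand for 8 of the 10 symbols, 16 windows in all, and those of *TAGLN* and *MYL9* were not analysed here. The 250 bases upstream of each start were searched on both strands for a CArG box, for a CArG-like sequence in which 1 base of the core of A and T is G or C, and for the MCAT element CATTCC, which TEAD factors bind. Every window matched GRCh37 exactly at a single place, and GRCh37 coordinates are given. A CArG box was found for 3 of the 8 symbols, *MYLK*, *CNN2* and *ACTN1*, in 3 of their 16 windows, against 1.16% of the 35116 windows of all genes. The *ACTA2* window held a pair of CArG-like sequences, which are a textbook feature of the smooth muscle alpha-actin promoter. At least 1 such sequence is found in 5.96% of all windows, and the share with a pair was not counted. A CArG-like sequence also stood 26 bases before the start in 1 of the 4 *CALD1* windows, which lies upstream of the annotated gene. The 3 windows with a CArG box and the *ACTA2* window are printed 5′ to 3′, with the CArG box or the CArG-like sequences in capitals.
ACTA2, chr10:90712531-90712780, minus strand: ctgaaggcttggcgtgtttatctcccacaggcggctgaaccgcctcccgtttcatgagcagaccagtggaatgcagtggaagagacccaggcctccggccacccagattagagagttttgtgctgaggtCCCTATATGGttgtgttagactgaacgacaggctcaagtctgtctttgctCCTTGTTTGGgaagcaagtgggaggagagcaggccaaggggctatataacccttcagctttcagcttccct
MYLK, chr3:123339396-123339645, minus strand: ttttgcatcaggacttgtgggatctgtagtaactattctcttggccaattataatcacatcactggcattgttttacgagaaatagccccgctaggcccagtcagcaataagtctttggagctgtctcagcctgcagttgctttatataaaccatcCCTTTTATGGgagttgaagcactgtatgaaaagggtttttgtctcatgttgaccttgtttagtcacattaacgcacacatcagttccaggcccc
CNN2, chr19:1026357-1026606, plus strand: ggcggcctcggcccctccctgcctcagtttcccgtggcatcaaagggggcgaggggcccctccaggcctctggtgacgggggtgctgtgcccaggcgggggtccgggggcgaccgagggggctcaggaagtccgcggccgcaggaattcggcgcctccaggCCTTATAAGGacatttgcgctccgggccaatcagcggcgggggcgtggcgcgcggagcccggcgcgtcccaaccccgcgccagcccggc
ACTN1, chr14:69444284-69444533, minus strand: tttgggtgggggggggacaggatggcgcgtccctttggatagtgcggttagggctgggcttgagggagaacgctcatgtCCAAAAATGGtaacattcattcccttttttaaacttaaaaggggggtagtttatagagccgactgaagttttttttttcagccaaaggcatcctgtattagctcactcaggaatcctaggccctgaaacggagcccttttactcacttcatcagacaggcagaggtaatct

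The CArG box began 94 bases before the start in the *MYLK* window, 89 bases before it in the *CNN2* window and 171 bases before it in the *ACTN1* window. These windows differ in where they lie. The *CNN2* window ends at the 5′ end of the annotated gene, whereas the *ACTN1* window belongs to a start 1.87 kb inside the gene, and the other 3 *ACTN1* windows held no match. The *MYLK* window lies 264 kb inside the gene, before the start of the short transcript of telokin, which lacks the kinase domain. The values per gene do not separate transcripts, so none of the levels given here can be assigned to a start. MCAT elements were found in 4 windows, the same *ACTA2* and *ACTN1* windows and 2 windows of *CALD1*, against 11.9% of all windows, and none overlapped a CArG box. A match is a sequence description and was not tested for binding.

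**Figure D1:**
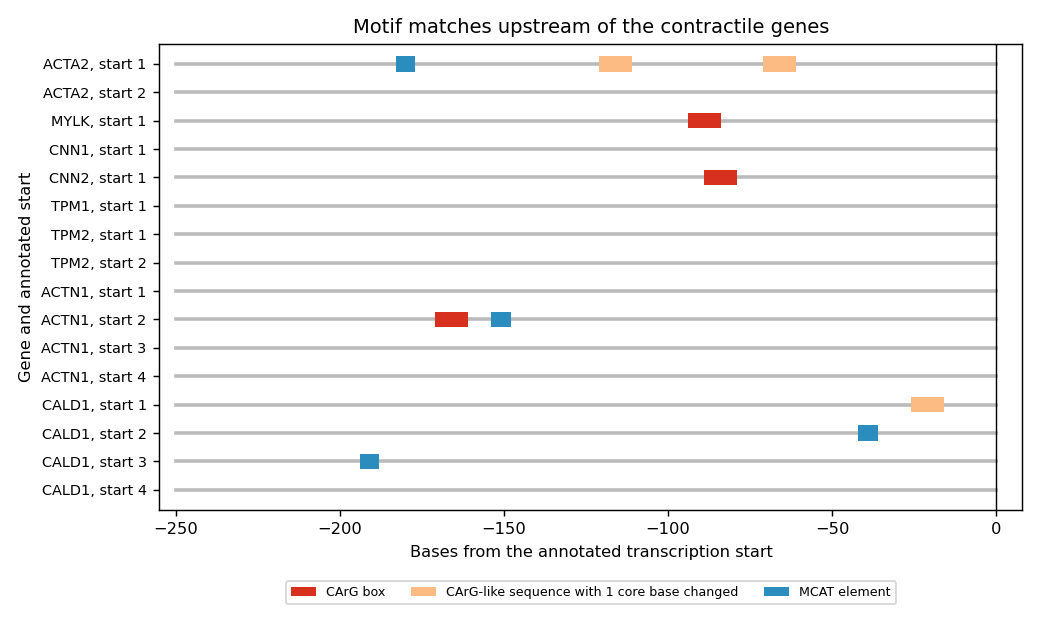
Positions of CArG boxes, CArG-like sequences and MCAT elements in the 250 bases before each RefSeq start of the contractile genes (x axis, bases from the annotated start; rows, gene and start). CArG boxes stand in 3 of the 16 windows, 1 each for *MYLK*, *CNN2* and *ACTN1*, and the 2 CArG-like sequences of *ACTA2* stand in its first window.

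In the MCF10A pLOC-empty libraries, the members covered a wide range of levels per length. Divided by the length of the canonical transcript, *TPM1*, which encodes a tropomyosin of many cell types, was highest at 296 ± 14.8 CPM per kb (SD, n = 2), followed by *ACTN1* at 157 ± 5.84 and *TPM2* at 121 ± 2.02 CPM per kb. *CALD1* and *CNN2* followed at 64.2 ± 0.285 and 58.2 ± 3.19 CPM per kb, and *TAGLN* was at 38.0 ± 2.37 CPM per kb. The lowest members were *MYL9* at 5.82 ± 0.664, *ACTA2* at 4.53 ± 0.291 and *MYLK* at 1.28 ± 0.0394 CPM per kb. Neighbours in this order did not overlap between libraries. In DCIS.COM pLOC-empty the order kept its first 3 genes, and *TAGLN* and *MYL9* were last, at 1.17 ± 0.0780 and 0.152 ± 0.0338 CPM per kb. The only neighbours whose libraries overlapped in any group were *MYL9* and *ACTA2* in MCF10A pLOC-*MALINC1*.

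**Figure D2:**
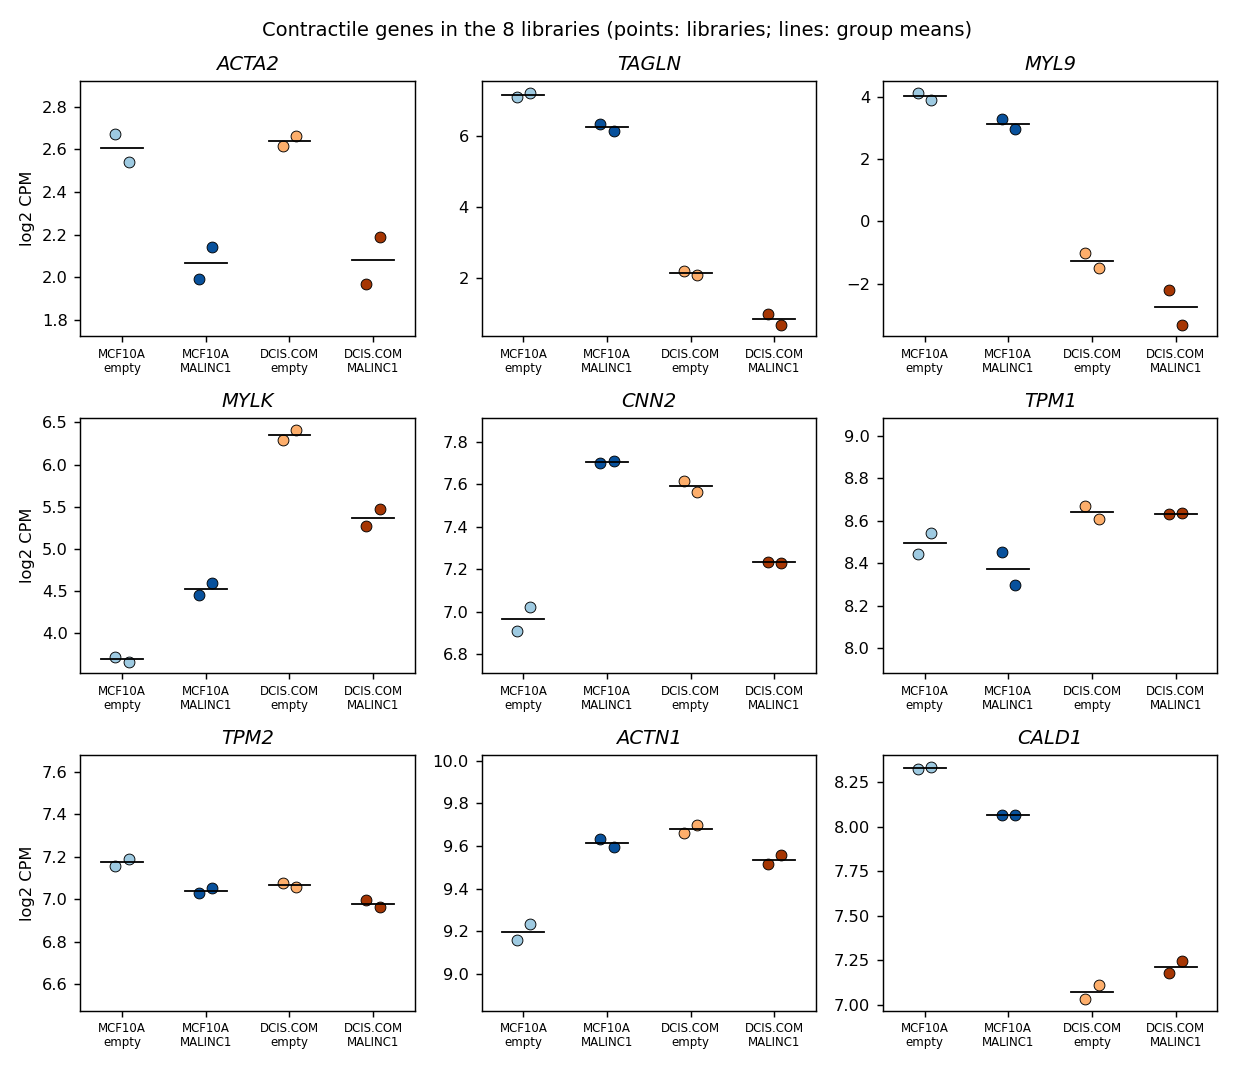
Level of 9 contractile genes in each library (y axis, log2 CPM, a separate scale per gene; x axis, the 4 groups; points, libraries; lines, group means). *TAGLN* and *MYL9* separate the cell lines, *ACTA2* separates the vectors within each line, and *TPM1* and *TPM2* span the narrowest range.

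*ACTA2* and *TAGLN* were the members that fell with *MALINC1* in both cell lines, where 3.97% of all genes fell in both. *ACTA2* encodes smooth muscle alpha-actin, the actin isoform by which myoepithelial cells are usually recognized. It was at 6.38 and 5.83 CPM in MCF10A pLOC-empty and at 3.97 and 4.42 CPM with pLOC-*MALINC1*. DCIS.COM had 6.13 and 6.32 CPM with pLOC-empty and 3.92 and 4.56 CPM with pLOC-*MALINC1*. All 4 pLOC-empty libraries were thus higher than all 4 pLOC-*MALINC1* libraries, although each library held only 115 to 183 reads of the gene. The log2 fold change was -0.54 (SE 0.13, limma adjusted p = 0.00387) in MCF10A and -0.56 (SE 0.13, limma adjusted p = 0.00378) in DCIS.COM. These responses differed by -0.017, with a 95% interval of -0.42 to 0.38 (limma adjusted p = 0.948). The *ACTA2* calls are close to the threshold, since with the 2 groups of a line fitted alone the limma adjusted p was 0.0253 in MCF10A and 0.0278 in DCIS.COM, and with any 1 library of the MCF10A comparison left out it was 0.0104 to 0.0352. In DCIS.COM it was 0.0171 and 0.0262 without either pLOC-empty library and 0.0422 without replicate 1 of pLOC-*MALINC1*.

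*TAGLN* encodes transgelin (SM22), an actin-binding protein of smooth muscle and a classical SRF target. It was at 138 and 150 CPM in MCF10A pLOC-empty and at 81.5 and 71.2 CPM with pLOC-*MALINC1*. DCIS.COM libraries were far lower, at 4.64 and 4.22 CPM with pLOC-empty and at 1.99 and 1.61 CPM with pLOC-*MALINC1*, or 98 and 87 reads against 66 and 52 reads. In each line the lower group lay clear of the higher one. *TAGLN* fell by 0.92 on the log2 scale (SE 0.11, limma adjusted p = 1.56e-05) in MCF10A. It fell by 1.31 (SE 0.11, limma adjusted p = 9.07e-07) in DCIS.COM, where it was a DEG. The difference between the responses, -0.39 (SE 0.15), did not pass the threshold (limma adjusted p = 0.0468). With a pseudocount of 1 CPM the change in DCIS.COM was -0.96 and no longer over 2-fold, and without replicate 1 of MCF10A pLOC-*MALINC1* the change in MCF10A was -1.01 and *TAGLN* was a DEG there too.

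*MYL9* encodes the regulatory light chain that is phosphorylated in smooth muscle contraction. It was at 17.5 and 14.9 CPM in MCF10A pLOC-empty and at 9.71 and 7.89 CPM with pLOC-*MALINC1*. The log2 fold change in MCF10A was -0.88 (SE 0.31), and it did not pass the threshold (limma adjusted p = 0.0293), although the groups did not overlap. In DCIS.COM the gene was close to absent, with 9 and 6 reads in the pLOC-empty libraries and 5 and 1 reads with pLOC-*MALINC1*. There *MYL9* had a log2 fold change of -1.503 (SE 0.31, limma adjusted p = 0.00168) and was a DEG that fell. The summed reads of 15 and 6 gave a ratio, corrected for depth, of 0.249 with an exact Clopper-Pearson 95% interval of 0.0791 to 0.678, which covers counting error only. The call in DCIS.COM did not pass with a pseudocount of 1 CPM (limma adjusted p = 0.0551), with quantile normalization (0.0134), with the 2 groups fitted alone (0.0441), without replicate 1 of DCIS.COM pLOC-empty (0.0246) or without replicate 2 of DCIS.COM pLOC-*MALINC1* (0.0131). Without either of the 2 DCIS.COM pLOC-*MALINC1* libraries, the call in MCF10A passed (0.00496 and 0.00445), as it did with a pseudocount of 1 CPM (4.17e-05).

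*MYLK*, *CNN2* and *ACTN1* rose with *MALINC1* in MCF10A and fell in DCIS.COM, a pattern found in 4.2% of all genes. *MYLK* encodes the kinase that phosphorylates the light chain. In MCF10A it was at 13.2 and 12.6 CPM with pLOC-empty and at 21.9 and 24.2 CPM with pLOC-*MALINC1*. In DCIS.COM it was at 78.1 and 85.2 CPM with pLOC-empty and at 38.6 and 44.4 CPM with pLOC-*MALINC1*. The vector groups thus stood in opposite order in the 2 lines, and no libraries of compared groups overlapped. *MYLK* rose by 0.83 (log2, SE 0.076, limma adjusted p = 2.07e-06) in MCF10A and fell by 0.98 (SE 0.076, limma adjusted p = 6.24e-07) in DCIS.COM, under 2-fold in each. Without replicate 1 of DCIS.COM pLOC-empty or replicate 2 of DCIS.COM pLOC-*MALINC1*, the change in DCIS.COM was -1.04 or -1.08, and *MYLK* was a DEG there. The difference between the responses was -1.81 (SE 0.11, limma adjusted p = 4.73e-08), and 2.37% of all genes had a lower value.

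*CNN2* encodes calponin 2, which is found in many non-muscle cells. It was at 120 and 130 CPM in MCF10A pLOC-empty and at 208 and 209 CPM with pLOC-*MALINC1*. In the DCIS.COM libraries its level was 196 and 189 CPM with pLOC-empty and 150.6 and 150.2 CPM with pLOC-*MALINC1*. The replicates of each group lay far closer to each other than to the other group. *CNN2* rose by 0.74 (log2, SE 0.039, limma adjusted p = 1.89e-08) in MCF10A and fell by 0.36 (SE 0.039, limma adjusted p = 1.25e-05) in DCIS.COM, with a difference of -1.10 (SE 0.055, limma adjusted p = 1.08e-08).

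*ACTN1* encodes alpha-actinin 1, which crosslinks actin filaments at focal adhesions and in stress fibers. It was the member with the most reads per gene, at 571 and 601 CPM in MCF10A pLOC-empty and at 794 and 773 CPM with pLOC-*MALINC1*. In DCIS.COM it was at 810 and 830 CPM with pLOC-empty and at 732 and 754 CPM with pLOC-*MALINC1*. The MCF10A pLOC-empty libraries were the lowest of all 8. *ACTN1* rose by 0.42 (log2, SE 0.036, limma adjusted p = 1.26e-06) in MCF10A and fell by 0.14 (SE 0.036, limma adjusted p = 0.00620) in DCIS.COM, with a difference of -0.56 (SE 0.051, limma adjusted p = 2.32e-06). The small fall in DCIS.COM did not pass with the 2 groups fitted alone (0.0270), with quantile normalization (0.0795) or with any 1 library of that comparison left out (0.0131 to 0.0606). Among the 7 measured members with a window, the 3 of this pattern were the 3 whose windows held a CArG box. *TAGLN* and *MYL9* had no window analysed here, so the match is incomplete. The boxes of *MYLK* and *ACTN1* belonged to starts inside the gene. CArG-like sequences stood in windows of *ACTA2*, which fell in both lines, and of *CALD1*. This is given as a description. The search for CArG-like sequences was added after the first results were seen, and a link between boxes and responses was not tested.

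*CALD1* moved the other way, falling in MCF10A and rising in DCIS.COM, as did 3.61% of all genes. It encodes caldesmon, which inhibits the actin-activated ATPase of myosin. It was at 321 and 323 CPM in MCF10A pLOC-empty and at 268 and 267 CPM with pLOC-*MALINC1*. The level was lower in DCIS.COM, at 131 and 138 CPM with pLOC-empty and at 145 and 152 CPM with pLOC-*MALINC1*. The groups did not overlap in either line, but the gap between the nearest libraries in DCIS.COM was of the size of the gap between replicates. *CALD1* fell by 0.27 (log2, SE 0.036, limma adjusted p = 6.14e-05) in MCF10A and rose by 0.14 (SE 0.036, limma adjusted p = 0.00741) in DCIS.COM, with a difference of 0.41 (SE 0.051, limma adjusted p = 3.74e-05). The rise in DCIS.COM did not pass without replicate 1 of DCIS.COM pLOC-empty (0.0786), without replicate 2 of DCIS.COM pLOC-*MALINC1* (0.0704), with any 1 of the 4 MCF10A libraries left out (0.0123 to 0.0133) or with the 2 groups fitted alone (0.0542).

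The tropomyosins, which line the actin filament and gate the access of myosin, varied least among the members. *TPM1* was at 348 and 373 CPM in MCF10A pLOC-empty, at 350 and 314 CPM in MCF10A pLOC-*MALINC1*, at 407 and 391 CPM in DCIS.COM pLOC-empty and at 396 and 397 CPM in DCIS.COM pLOC-*MALINC1*. Its vector groups overlapped in each line, and the change was -0.12 (log2, SE 0.049, limma adjusted p = 0.0582) for MCF10A and -0.0066 (SE 0.049, limma adjusted p = 0.929) for DCIS.COM. *TPM2*, the tropomyosin more typical of muscle, was at 143 and 146 CPM in MCF10A pLOC-empty and at 131 and 133 CPM with pLOC-*MALINC1*. In DCIS.COM it was at 135 and 133 CPM with pLOC-empty and at 128 and 125 CPM with pLOC-*MALINC1*. *TPM2* fell by 0.13 (log2, SE 0.033, limma adjusted p = 0.00501) in MCF10A, a call that did not pass with any 1 library of the comparison left out (0.0150 to 0.0470), and its log2 fold change was -0.087 (limma adjusted p = 0.0491) in DCIS.COM. The highest *TPM2* library was 1.17 times the lowest over all 8, against 174 times for *MYL9* and 93.4 times for *TAGLN*.

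**Figure D3:**
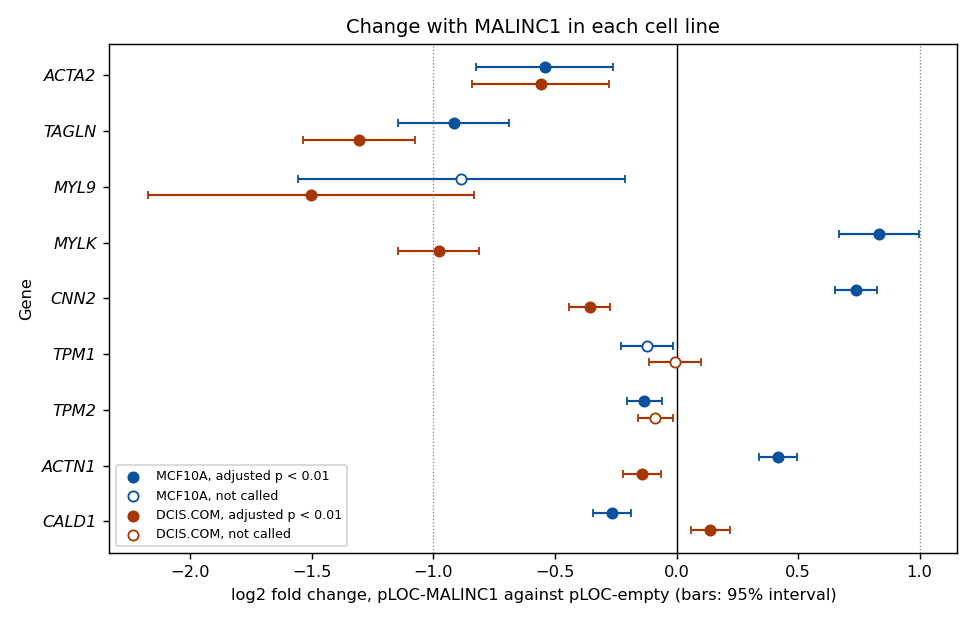
Change of 9 contractile genes with *MALINC1* in MCF10A and DCIS.COM (x axis, log2 fold change of pLOC-*MALINC1* against pLOC-empty; bars, 95% interval of limma; filled points, adjusted p below 0.01; dotted lines, 2-fold). *MYLK*, *CNN2* and *ACTN1* stand on opposite sides of 0 in the 2 lines, and *ACTA2*, *TAGLN* and *MYL9* are below 0 in both.

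In MCF10A, none of the 9 members was a DEG by limma, where 5.5% of all genes were, while 9 of the 9 had an unadjusted p under 0.05, as did 58.5% of all genes. No other tool was run. By the adjusted p alone 7 members changed, against 39.6% of all genes. Of these 3 rose and 4 fell, against 21.5% and 18.1% of all genes. In DCIS.COM 2 members were DEGs, where 4.53% of all genes were, and both were lower, against 3.08%. By the adjusted p alone 7 changed there, against 33.2%, with 1 risen and 6 fallen, against 16.4% and 16.7% of all genes. The response differed between the lines for 4 of 9 members, against 35.9% of all genes, being higher in DCIS.COM for 1 (15.6%) and lower for 3 (20.3%). The difference was over 2-fold for 2 members (9.2%), both lower in DCIS.COM (5.22%). The median log2 fold change of the members was -0.13 for MCF10A and -0.36 for DCIS.COM, where the median over all genes was 0.0089. In bulk RNA, fewer cells of a type and less RNA per cell cannot be told apart.

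The cell lines were then compared with each vector in turn. Each of these comparisons uses libraries that also enter the comparisons of vectors, so their values are not independent of those above. With the empty vector, 4 of the 9 members were DEGs, where 28.6% of all genes were, of which 1 was higher in DCIS.COM (15.6%) and 3 were lower (13%). By the adjusted p alone 7 differed (73.9%), with 3 higher (37.9%) and 4 lower (36%). *TAGLN* was lower in DCIS.COM by 32.5-fold with pLOC-empty (log2 fold change -5.02, SE 0.11, limma adjusted p = 3.38e-13), and only 1.56% of all genes had a lower value. With pLOC-*MALINC1* it was lower by 42.5-fold (log2 fold change -5.41, limma adjusted p = 2.09e-13). *MYL9* had 841 reads in MCF10A and 15 in DCIS.COM with pLOC-empty, a level 46.1-fold higher in MCF10A (exact Clopper-Pearson 95% interval 27.8 to 82.7). With pLOC-*MALINC1* the reads were 553 and 6, a level 101-fold higher in MCF10A (46.0 to 276). These intervals are for summed reads and cover counting error only. By limma, *MYL9* was lower in DCIS.COM by 38.6-fold with pLOC-empty (log2 fold change -5.27, SE 0.31, limma adjusted p = 4.92e-09). With pLOC-*MALINC1* it was lower by 59.2-fold (log2 fold change -5.89, limma adjusted p = 1.92e-09). These gaps were far larger than the spread between libraries.

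*CALD1* was lower in DCIS.COM as well, by 1.26 on the log2 scale with pLOC-empty (limma adjusted p = 5.50e-12), where it was a DEG, and by 0.85 with pLOC-*MALINC1* (limma adjusted p = 2.53e-10). *MYLK* was the member that stood higher by more than 2-fold, by 6.31-fold with pLOC-empty (log2 fold change 2.66, SE 0.076, limma adjusted p = 5.04e-12). With pLOC-*MALINC1* the *MYLK* gap was 0.85 on the log2 scale (limma adjusted p = 3.62e-07). The reads of *MYLK*, which can include telokin, were thus higher in DCIS.COM and those of *MYL9* lower. *CNN2* changed sides with the vector, with a log2 fold change of 0.62 (limma adjusted p = 9.66e-09) with pLOC-empty and -0.47 (limma adjusted p = 1.71e-07) with pLOC-*MALINC1*. *ACTN1* was higher in DCIS.COM by 0.49 with pLOC-empty (limma adjusted p = 5.24e-08) and had a log2 fold change of -0.077 (limma adjusted p = 0.0672) with pLOC-*MALINC1*.

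*ACTA2* libraries of the 2 lines overlapped with each vector, with log2 fold changes of 0.031 (95% interval -0.25 to 0.31) and 0.014. The tropomyosins differed little as well. *TPM1* had a log2 fold change of 0.15 (limma adjusted p = 0.0155) with pLOC-empty and was higher in DCIS.COM by 0.26 (limma adjusted p = 0.000344) with pLOC-*MALINC1*. The first of these passed with quantile normalization (7.60e-05), without replicate 2 of MCF10A pLOC-empty (0.00974) and without either MCF10A pLOC-*MALINC1* library (0.00545 and 0.00546). *TPM2* was lower by 0.11 (limma adjusted p = 0.00979) with pLOC-empty, a call that did not pass with quantile normalization (0.154) or with any 1 of the 8 libraries left out (0.0113 or more), and had a log2 fold change of -0.061 (limma adjusted p = 0.108) with pLOC-*MALINC1*. With pLOC-*MALINC1* 2 of 9 members were DEGs, *TAGLN* and *MYL9*, both lower, against 12.2% of all genes that were lower and 26.6% in either direction. By the adjusted p alone 6 differed (73%), with 2 higher (35.7%) and 4 lower (37.2%).

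**Figure D4:**
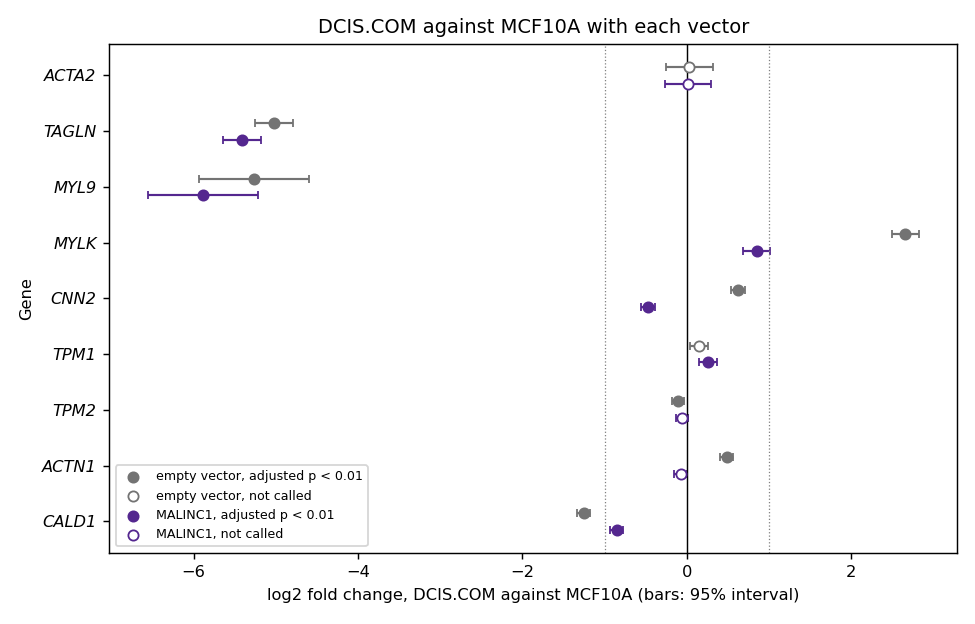
Difference of 9 contractile genes between the cell lines with each vector (x axis, log2 fold change of DCIS.COM against MCF10A; bars, 95% interval of limma; filled points, adjusted p below 0.01; dotted lines, 2-fold). *TAGLN* and *MYL9* are lower in DCIS.COM by more than 5 on the log2 scale with both vectors, and the *MYLK* difference goes from 2.66 to 0.85.

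Some levels are uncertain because genes share sequence. In GENCODE, 34.1% of the exon bases of *TAGLN* overlap *PCSK7* on the opposite strand, and 38.1% overlap ENSG00000280143 on the same strand. The log2 fold change of *PCSK7* with *MALINC1* was -0.021 (limma adjusted p = 0.712) for MCF10A and 0.086 (0.129) for DCIS.COM. Between the lines with pLOC-empty it was -1.02. *PCSK7* was at 40.6 and 43.1 CPM in DCIS.COM with pLOC-empty and pLOC-*MALINC1*, where *TAGLN* was at 4.43 and 1.80 CPM, and its part in the *TAGLN* values was not tested. For *ACTA2*, 29.1% of exon bases overlap the antisense gene *ACTA2-AS1* and 6.75% overlap *FAS*, which rose by 0.42 in MCF10A and fell by 0.44 in DCIS.COM. The strand setting of the counting is not given in the sources used here, so reads of such pairs cannot be told apart. *ACTA2* is also nearly identical in coding sequence to the other muscle actins, and *MYL9* is closely related to *MYL12A* and *MYL12B*.

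Related genes outside the set were grouped by role. Of 8 tested paralogs of the actin, tropomyosin, calponin, actinin and transgelin families, 3 rose and 1 fell in MCF10A, against 21.5% and 18.1% of all genes. The counts in DCIS.COM were 3 risen and 1 fallen, against 16.4% and 16.7%. *ACTG1*, cytoplasmic gamma-actin, rose by 0.61 (SE 0.042, limma adjusted p = 2.02e-07) in MCF10A and had a log2 fold change of -0.026 (limma adjusted p = 0.646) in DCIS.COM. *CNN3*, the third calponin, rose by 0.25 in MCF10A and fell by 0.41 in DCIS.COM, like *CNN2*. *TPM3* rose by 0.12 and 0.30, while *TPM4* had log2 fold changes of -0.081 (limma adjusted p = 0.154) and 0.057 (0.335). *ACTB*, cytoplasmic beta-actin, changed by 0.13 (log2, 0.0416) with *MALINC1* for MCF10A and by 0.22 (0.00267) for DCIS.COM, and the values of *ACTN4* were -0.046 (0.323) and 0.15 (0.00600). Between the lines with pLOC-empty, 2 of these 8 were higher and 5 lower in DCIS.COM, against 37.9% and 36% of all genes. *TPM4* was lower by 2.12 (1222 against 281 CPM), *TAGLN2* by 1.38 and *ACTB* by 1.08.

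The myosin II list holds the non-muscle heavy chains and their light chains. Of its 7 tested genes, 2 rose and 1 fell in MCF10A, against 21.5% and 18.1% of all genes. The counts in DCIS.COM were 2 risen and 3 fallen, against 16.4% and 16.7%. *MYH9*, the main non-muscle heavy chain, had a log2 fold change of 0.070 (limma adjusted p = 0.151) in MCF10A and rose by 0.26 in DCIS.COM. *MYL6*, the essential light chain, fell by 0.24 in MCF10A and rose by 0.16 in DCIS.COM. Between the lines with pLOC-empty, 6 of 7 were lower in DCIS.COM, where 36% of all genes were, and *MYL6* had the largest gap, 1222 against 331 CPM (log2 fold change -1.88, limma adjusted p = 1.41e-13).

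Among these 4 related lists, that of focal adhesion and smooth muscle cytoskeleton genes held the largest changes. Of 21 tested, 2 rose and 9 fell in MCF10A, against 21.5% and 18.1% of all genes. In DCIS.COM 6 rose and 5 fell, against 16.4% and 16.7%. *TNS1*, the focal adhesion protein tensin 1, was the DEG of this list with at least 5 CPM in MCF10A, where it went from 15.9 to 4.57 CPM (log2 fold change -1.80, SE 0.17, limma adjusted p = 3.33e-06). Between the lines, *FLNA*, which encodes the actin crosslinker filamin A, was at 1498 CPM in MCF10A and 11.0 CPM in DCIS.COM with pLOC-empty and at 1576 and 10.4 CPM with pLOC-*MALINC1* (log2 fold changes -7.08 and -7.25, limma adjusted p = 7.24e-18 and 2.13e-18). Its responses to *MALINC1* were 0.074 (limma adjusted p = 0.141) for MCF10A and -0.093 (0.0770) for DCIS.COM. *SYNPO2*, an actin-bundling protein of muscle, was higher in DCIS.COM (14.04 CPM, against 0.308 CPM in MCF10A, with pLOC-empty), while *TNS1* and *CRYAB* were lower, with log2 fold changes of -5.82 and -2.81. *HSPB1* and *FERMT2* were lower in DCIS.COM with each vector. Their log2 fold changes were -1.89 and -2.50 with pLOC-empty and -1.88 and -1.85 with pLOC-*MALINC1*. In all, 14 of 21 genes of this list were lower and 4 higher in DCIS.COM with pLOC-empty, where 36% and 37.9% of all genes were.

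Of the 6 tested genes of SRF and its cofactors, 2 rose and 1 fell in MCF10A, against 21.5% and 18.1% of all genes. Only 1 of them rose in DCIS.COM, against 16.4%, and none fell, against 16.7%. *SRF* itself rose by 0.44 (SE 0.057, limma adjusted p = 4.24e-05) in MCF10A and by 0.23 (limma adjusted p = 0.00579) in DCIS.COM. *MRTFA* (MKL1), which carries the actin signal to SRF, fell by 0.52 in MCF10A and had a log2 fold change of -0.049 (limma adjusted p = 0.462) in DCIS.COM, and *MRTFB* (MKL2) had -0.031 (0.827) and -0.061 (0.665). Between the lines with pLOC-empty, *MRTFA* was lower in DCIS.COM by 1.04 and *ELK3* by 1.76, and *ELK4* was higher by 1.08.

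**Figure D5:**
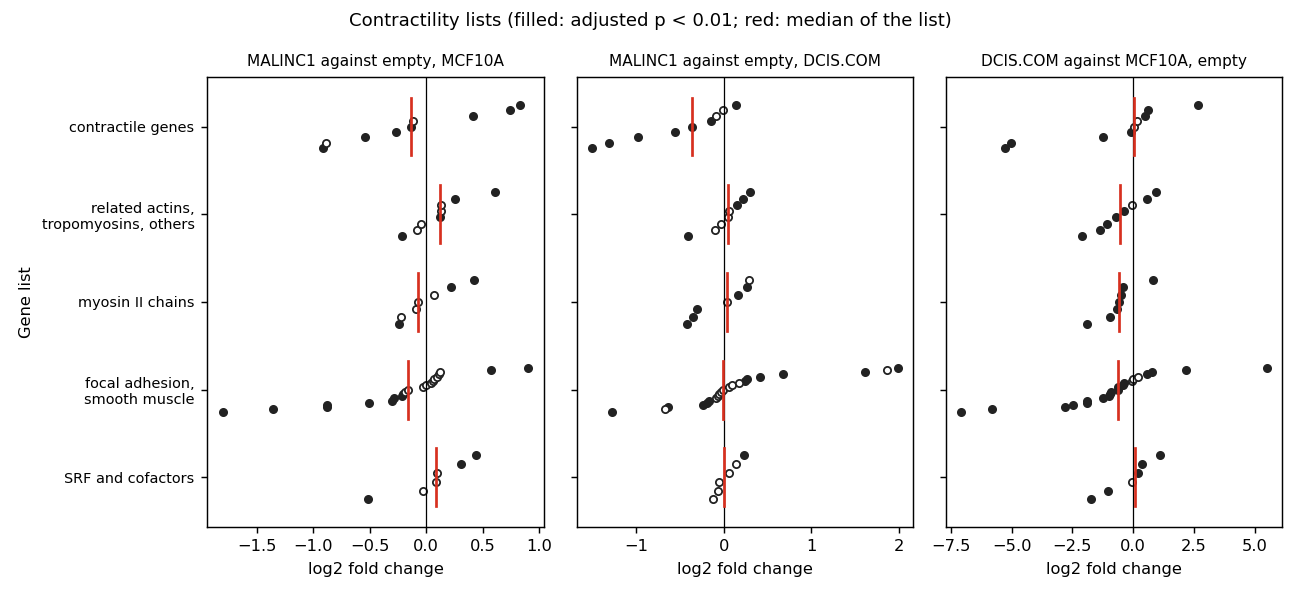
Log2 fold change of each tested gene in the contractile set and in 4 related lists (x axis, a separate scale per panel; points, genes, filled where adjusted p is below 0.01; red lines, list medians). The panels show the response to *MALINC1* in MCF10A and in DCIS.COM and the difference between the lines with pLOC-empty. In the last, 6 of the 7 myosin II genes are lower in DCIS.COM, against 36% of all genes.

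Cell type markers were compared with the name of the set. All 12 basal and myoepithelial markers had a row, and *KRT5*, *KRT14* and *KRT17*, keratins of basal cells, were at 6150, 1452 and 9985 CPM in MCF10A pLOC-empty and at 1069, 33.1 and 970 CPM in DCIS.COM pLOC-empty. The summed level of the basal list was 20781 to 20898 CPM in MCF10A pLOC-empty, 28284 to 28899 with pLOC-*MALINC1*, 6651 to 6813 in DCIS.COM pLOC-empty and 7313 to 7471 with pLOC-*MALINC1*. *TP63*, the basal transcription factor p63, was a DEG in MCF10A, from 4.99 to 41.0 CPM, and was at 56.7 and 49.6 CPM in DCIS.COM. Of the 12 basal markers 8 rose with *MALINC1* in MCF10A, where 21.5% of all genes rose. The 8 were *KRT5*, *KRT14*, *KRT17*, *TP63*, *CDH3*, *ITGA6*, *ITGB4* and *JAG2*. The 2 that fell there were *MME* and *OXTR* (18.1% of all genes fell). In DCIS.COM 4 rose and 5 fell, against 16.4% and 16.7%, with *OXTR* among those that rose and *MME* among those that fell. Between the lines with pLOC-empty 7 were lower in DCIS.COM and 5 higher (*TP63*, *ITGA6*, *ITGB4*, *NGFR* and *JAG2*), against 36% and 37.9% of all genes. Genes most restricted to smooth muscle (*MYH11*, *DES*, *LMOD1*, *MYOCD*) were not analysed here.

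Markers of other cell types moved with some members. Of the fibroblast list 3 of 10 symbols had a row, *COL1A1*, *FAP* and *POSTN*, and their summed level was 96.8 to 98.4 CPM in MCF10A pLOC-empty and 45.0 to 47.5 with pLOC-*MALINC1*. In DCIS.COM the sum was 6.88 to 7.37 CPM with pLOC-empty and 2.34 to 2.43 with pLOC-*MALINC1*, with *POSTN* at 0 or 1 reads in each library. The sum of this list was thus lower in the same groups as *TAGLN*, *MYL9* and, for the vectors, *ACTA2*, and its part in those results was not tested. *FAP* alone was at 70.3 and 35.1 CPM in MCF10A with pLOC-empty and pLOC-*MALINC1*, and at 5.01 and 0.688 CPM in DCIS.COM. All 3 genes fell with *MALINC1* in MCF10A (18.1% of all genes). Only *FAP* fell in DCIS.COM (16.7%), and the other 2 were not called. Of 9 vascular smooth muscle and pericyte markers 5 had a row, and they summed to 92.2 to 97.9, 51.0 to 53.1, 33.2 to 33.6 and 39.5 to 40.7 CPM in the 4 groups in the same order. Within this list *CSPG4* fell from 67.5 to 11.9 CPM and *NOTCH3* rose from 3.90 to 18.3 CPM in MCF10A. Luminal markers, 9 of 11 with a row, summed to 6457 to 6614, 5360 to 5578, 5235 to 5238 and 5795 to 5869 CPM. Of these 9, 3 rose and 2 fell in MCF10A, against 21.5% and 18.1% of all genes.

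Over the 8 libraries, *TAGLN* and *MYL9* had the most alike profiles among the members, with a Pearson correlation of their log2 CPM of 0.997. *CALD1* followed *TAGLN* with 0.960 and *MYLK* ran against *CALD1* with -0.948, while *CNN2* and *ACTN1* were correlated at 0.889. These values are descriptions over 8 libraries that fall into 2 lines and 4 groups, and the gap between the lines dominates the first 3. Outside the set, the genes with the profile most like the mean of the members were *TGFBR2*, *SDCBP*, *C6orf223*, *SCNN1A* and *CNDP2*, with Pearson correlations of 0.999, 0.998, 0.998, 0.998 and 0.998 among 11389 genes with at least 5 CPM in a group. That mean mainly follows the members of widest range, *MYL9* and *TAGLN* (7.44 and 6.55 on the log2 scale). The Pearson correlations of *MYLK*, *TPM1*, *ACTN1* and *CNN2* with *TAGLN* were -0.843, -0.767, -0.578 and -0.158, so the likeness does not extend to every member. *TGFBR2*, the type II receptor of TGF-beta, was at 385, 340, 162 and 91.0 CPM in MCF10A with pLOC-empty and pLOC-*MALINC1* and in DCIS.COM with the same vectors.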

How the data were processed

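According to the methods, Rsubread placed the 76 nt paired-end reads on hg19, featureCounts summed them per UCSC gene, and the authors normalized the sums with edgeR. The authors deposited log2 CPM for 13842 genes, and the strand setting, the filter on low counts and tool versions are not given in the sources used here. Per the values, a gene with 0 reads stands at 0.0713 CPM in every library, and 100% of the deposited log2 values gave whole reads (within 0.1 read) once the prior count was removed. Rows without a symbol (346) held at most 0.358% of reads.

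These values entered limma 3.58.1 (R 4.3.3, functions lmFit and eBayes with a trend) with 4 group means over the 8 libraries. P-values were adjusted by Benjamini-Hochberg over all genes with at least 0.5 CPM in 2 libraries, which kept every gene. A count model was not used because the deposited unit is log2. Median log2 SE over all genes was 0.073 within a line. Groups and replicates were taken from the labels. The replicate numbers did not pair the libraries (correlations of same-numbered deviations -0.067 to 0.038).

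The members and lists were chosen with earlier results of these data known, so no list was tested as a set, and 1 list is not reported here. All members were named. From each other list, the text names DEGs whose higher group reached 5 CPM (at most the 4 largest per comparison), some only in the closing section, and fixed paralogs and SRF factors. The 5 genes most like the mean of the members are also named. Promoter windows came from RefSeq (GRCh38.p14) and annotation from GENCODE on GRCh37. Levels per length used the canonical transcript. The search for CArG-like sequences was added after the first results were seen. Among the alternatives were other pseudocounts, filters, scalings, models and thresholds, which also left out each library in turn.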

Additional observations from a re-analysis of the deposited data

Results flagged for a closer look

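For 4 members, the change with *MALINC1* in DCIS.COM differed from that in MCF10A by the limma test of the difference itself, with opposite directions in the 2 lines. For *MYLK*, the log2 responses differed by -1.81 (SE 0.11, limma adjusted p = 4.73e-08), from 0.83 in MCF10A to -0.98 in DCIS.COM. The *CNN2* responses differed by -1.10 (SE 0.055, limma adjusted p = 1.08e-08), those of *ACTN1* by -0.56 (SE 0.051, limma adjusted p = 2.32e-06) and those of *CALD1* by 0.41 (SE 0.051, limma adjusted p = 3.74e-05). A difference in response, whatever the directions, was called for 35.9% of all genes. Changes called in both lines with opposite directions were up in MCF10A for 4.2% of all genes and down there for 3.61%. The changes of *ACTN1* and *CALD1* in DCIS.COM did not pass in several alternatives, as given above, so their opposite directions are less certain. Groups of 2 libraries were too small for a check of single libraries that stand apart.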

How the results depend on the processing

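Of 621 values of single members under the alternatives, 548 kept their direction and their side of the threshold, 46 were no longer past it, 13 came to pass it and 14 changed sign. No scaling moved the median of all genes by more than 0.046. The number of DEGs among the members was 0 in MCF10A and 2 in DCIS.COM, and it was 2 for the difference between the responses. Between the lines it was 4 with pLOC-empty and 2 with pLOC-*MALINC1*. With the fold requirement dropped, these counts were 7, 7, 4, 7 and 6. At an adjusted p below 0.05 and over 1.5-fold, the count was 4 in MCF10A and 4 between the lines with pLOC-*MALINC1*. The other alternatives kept the thresholds of an adjusted p below 0.01 and over 2-fold. The DCIS.COM count was then 0 with a pseudocount of 1 CPM, 1 with quantile normalization and 1 with the 2 groups fitted alone. Leaving out 1 library at a time gave counts of 0 to 1 in MCF10A, 2 in DCIS.COM (*MYLK* in place of *MYL9* in 2 of these fits), 2 for the difference, and 4 and 2 between the lines. The lone library of the group was then assumed to vary like the others. A fit with the replicate block gave 0, 2, 2, 4 and 2, and *MYL9* in MCF10A passed the adjusted p in it (limma adjusted p = 0.00709). Values that changed sign were mostly near 0. *TPM1* in DCIS.COM was 0.0019 with median centring and -0.036 to 0.023 without 1 library of DCIS.COM pLOC-empty. The *ACTA2* difference was -0.13 to 0.094 without 1 library, and above 0 in 4 of those fits. Between the lines *ACTA2* was -0.079 with quantile normalization and -0.035 to 0.096 without 1 library with pLOC-empty, and -0.15 and -0.097 to 0.12 with pLOC-*MALINC1*. With quantile normalization *TPM2* was 0.058 and *ACTN1* 0.059 between the lines with pLOC-*MALINC1*. The *MYL9* difference was 0.52 (limma adjusted p = 0.0201) with a pseudocount of 1 CPM, and that pseudocount is above the *MYL9* level in DCIS.COM. *TAGLN* passed for the difference without replicate 1 of DCIS.COM pLOC-*MALINC1* (limma adjusted p = 0.00734). Other causes were not tested.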

Other observations

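The pattern of *MYLK*, *CNN2* and *ACTN1*, up with *MALINC1* in MCF10A and down in DCIS.COM, was found in 4 of the 42 genes of the 4 related contractility lists (9.52%), against 4.2% of all genes, and these were named after their values were seen. They were *CNN3*, *CSRP2*, *MYL12A* and *SMTN*. *SMTN* encodes smoothelin, a protein of contractile smooth muscle, and it rose by 0.57 in MCF10A and fell by 0.16 in DCIS.COM (limma adjusted p = 4.66e-07 and 0.00943). *CSRP2*, a LIM protein of smooth muscle, rose by 0.91 and fell by 0.64 (limma adjusted p = 1.41e-05 and 0.000302). *MYL12A*, a non-muscle regulatory light chain, rose by 0.22 and fell by 0.41. The opposite pattern was found in 3 of the 42 (7.14%), *MYL6*, *PDLIM7* and *TNS1*, against 3.61% of all genes. *TNS1* in DCIS.COM rose by 1.61 (limma adjusted p = 1.08e-05), from 5 and 4 reads to 27 and 27 reads.

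Among the remaining markers with a change over 2-fold, *MME*, a surface peptidase of myoepithelial cells, was at 87.8 CPM in MCF10A pLOC-empty and at 1.53 CPM in DCIS.COM pLOC-empty. *NGFR*, another myoepithelial marker, had at most 1 read in each MCF10A library and 5807 to 7094 reads in each DCIS.COM library. *OXTR*, the oxytocin receptor through which myoepithelial cells are made to contract, went from 5.99 to 2.89 CPM with *MALINC1* in MCF10A (log2 fold change -1.06, SE 0.26, limma adjusted p = 0.00453) and from 0.427 to 0.835 CPM in DCIS.COM (1.02, limma adjusted p = 0.00647). The DCIS.COM values of *OXTR* rest on few reads, 5 and 10 with pLOC-empty and 23 and 29 with pLOC-*MALINC1*. The *OXTR* responses of the 2 lines differed by 2.08 (limma adjusted p = 0.000537). *KRT14* rose by 1.01 in MCF10A and fell by 0.59 in DCIS.COM. *EPCAM*, a surface protein of luminal cells, was at 62.3 CPM in MCF10A pLOC-empty and 280 CPM in DCIS.COM pLOC-empty.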
